A study of Drosophila melanogaster with 8 samples.

Results

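The comparison described here is the effect of pan-neuronal dimm at embryonic stage 14, read from 4 of the 8 arrays of the series. The 2 elav-dimm arrays (genotype w;UAS-dimm2A3/+;elav-GAL4/+) were set against the 2 control arrays (genotype w;;elav-GAL4) of the same stage. Both genotypes carry the pan-neuronal driver elav-GAL4, and elav-dimm embryos also carry a UAS transgene of myc-tagged dimm (line 2A3). The controls are the driver's own parental line, so the groups also differ in how many copies of the driver they can carry and in the chromosomes brought by the other parent. Whole dechorionated embryos were collected at 18 °C, at 22 to 26 h after egg laying per the sample labels and from 24 h per the series text. A rearing temperature of 25 °C is given for both groups. The series text can be read as both arrays of a group coming from 1 RNA sample. In that case the spread behind the p-values is technical.

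DIMMED, the product of dimm, is a basic helix-loop-helix transcription factor. In the fly it marks neuroendocrine cells that release peptides, and it raises their capacity to make, amidate and store neuropeptides in secretory granules called dense core vesicles. Neuropeptides are cut from precursor proteins by proprotein convertases, trimmed by carboxypeptidases and amidated at their C terminus, the first step of which in flies is carried out by the enzyme PHM. At stage 14 the embryonic nervous system is still differentiating.

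Each value is a log2 GCRMA signal of a probe set, a group of short oligonucleotides that reads 1 transcript or several alike ones. Of 18769 probe sets that are not array controls, 7602 had a signal above 4 on at least 2 of the 4 arrays and were tested with limma. Between 40.9% and 41.2% of the probe sets of an array lay at the lowest value of the stage, 2.18, which stands for background. On the arrays the difference between replicates had an SD of 0.232 in elav-dimm and 0.168 in control embryos. The difference between the genotypes had an SD of 0.332 over the same probe sets. That is a difference of means of 2 arrays each, which varies less than one of single arrays, so the SDs are not like measures. At the 5′ end of control transcripts, elav-dimm replicate 2 was dimmer than the other 3 arrays. Its eIF4A 5′ signal was 11.36, against 12.18 on the other elav-dimm array and 12.54 and 12.25 on the control arrays. The part of this in the results below was not tested.

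At an adjusted p of 0.05 in limma, 228 probe sets passed, which is 3.0% of those tested. Of these, 151 (1.99%) were higher and 77 (1.01%) were lower in elav-dimm embryos. The higher probe sets named 131 genes and the lower ones 65, while 20 named no gene and 9 several. Rises reached further than falls: 43 probe sets rose at least 2-fold and 20 at least 4-fold, while 20 fell at least 2-fold and 0 at least 4-fold. Most transcripts moved little, with 93.4% of all tested differences under 0.5 on the log2 scale. All 228 had elav-dimm arrays that did not overlap the control arrays, but so had 55.2% of all tested probe sets (35% higher and 20.2% lower). Leaving out any 1 of the 4 arrays left 0 probe sets past the threshold, although 1071 to 1873 then had an unadjusted p under 0.05 in limma. When the arrays were quantile-normalised again, 183 were higher and 170 lower, a share of 51.8% higher against 66.2%.

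**Figure D1:**
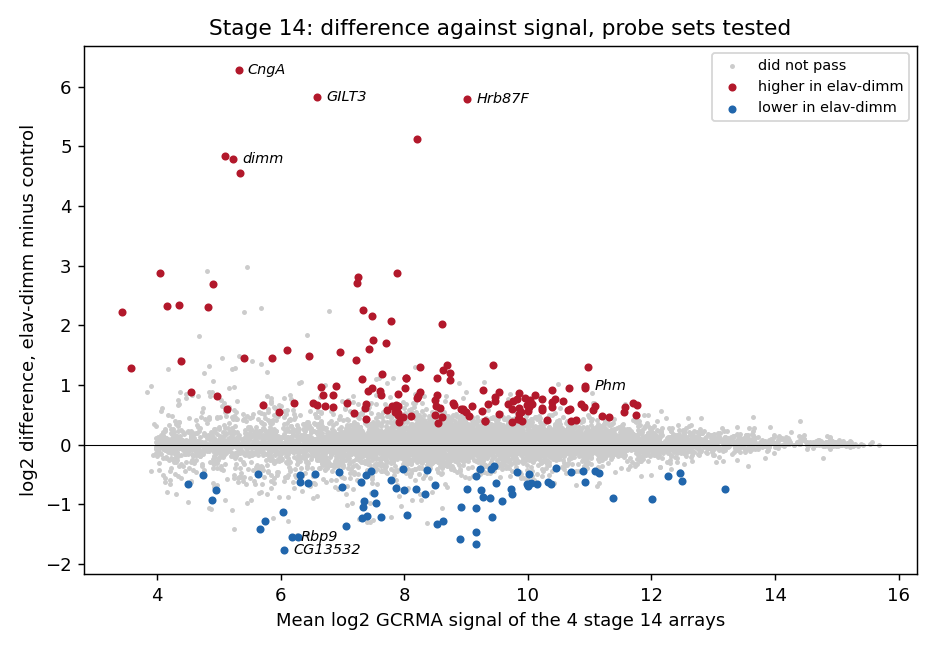
Difference between elav-dimm and control embryos at stage 14 (log2, vertical axis) against the mean log2 GCRMA signal of the 4 arrays (horizontal axis), 1 point per probe set tested. Red points are the 151 that were higher and blue points the 77 that were lower at an adjusted p of 0.05 in limma; the few differences above 4 are all rises.

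The transgene's gene was read first. The dimm probe set had signals of 7.59 and 7.66 in elav-dimm embryos, against 2.86 and 2.80 in control embryos. The arrays of a group lay close together and the groups were far apart, with a difference of 4.79 ± 0.05 (SE, log2, adjusted p = 0.00121 in limma). The control values lie below 4, and with all values below 4 raised to 4 the difference was 3.62. The array does not tell transcripts of the transgene from those of the native gene. The neuronal gene elav, whose promoter drives GAL4, had 12.23 and 12.21 in elav-dimm and 12.23 and 12.21 in control embryos.

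The enzymes and vesicle proteins of peptide secretion were mostly too dim to test at this stage. Of 17 such genes with a probe set, 7 were tested, 1 rose, none fell and 6 did not pass, beside 1.98% of all tested genes that rose. The gene that rose was Phm, which encodes the amidating enzyme and is a known target of DIMMED. Its brighter probe set had 11.42 and 11.42 in elav-dimm embryos, against 10.40 and 10.48 in control embryos. The difference was 0.98 ± 0.05 (adjusted p = 0.0207 in limma), a 1.98-fold rise. The dimmer Phm probe set had 7.96 and 7.53 in elav-dimm and 6.17 and 6.21 in control embryos, a difference of 1.55 (adjusted p = 0.047). In both probe sets every elav-dimm array lay above every control array.

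Of the other tested members, CG1275, a cytochrome b561 family gene, had 5.68 and 5.27 in elav-dimm and 4.95 and 4.74 in control embryos. Its groups did not overlap, but the difference of 0.63 ± 0.18 did not pass (adjusted p = 0.159 in limma). 7B2, which encodes a helper protein of a proprotein convertase, differed by 0.29 (adjusted p = 0.2). Pal1, which encodes the second enzyme of amidation, differed by 0.03, and Cadps, a priming factor for dense core vesicle release, by -0.19. Fur2, a furin-like convertase gene, differed by -0.21, and isoQC, a glutaminyl cyclase gene, by 0.09. The list median was 0.09, against 0.03 for all tested probe sets.

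The 10 untested members included amon, the neuroendocrine prohormone convertase gene. Its signals were 2.77 and 2.41 in elav-dimm embryos and 2.33 and 2.27 in control embryos, within the dim range where sizes are uncertain. Rph, the gene of rabphilin, a vesicle-associated protein, had 3.32 and 3.91 in elav-dimm and 2.47 and 2.72 in control embryos. Both of its elav-dimm values were the higher ones, but none reached 4. Pal2, a further gene of the second amidation step, had 2.45 and 2.45 in elav-dimm and 2.45 and 2.44 in control embryos.

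The neuropeptide precursors themselves were hardly detected. Of 38 precursor and peptide hormone genes with a probe set, 35 were below the filter, and 33 of these lay under 3 on every one of the 4 arrays. They included Crz, Dh44, Pdf, CCAP and FMRFa, classical products of neuroendocrine cells. In whole embryos, fewer cells of a type and less RNA per cell cannot be told apart. The 3 tested members did not pass. Nplp2 had 14.66 and 14.65 in elav-dimm and 14.89 and 14.87 in control embryos (adjusted p = 0.086 in limma). CCHa2 had 4.96 and 5.91 in elav-dimm and 4.75 and 4.72 in control embryos. The groups of ITP, an ion transport peptide gene, overlapped, with 7.99 and 8.02 in elav-dimm and 7.94 and 8.15 in control embryos.

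Among 6 genes linked to dimm in published work, 5 rose and CG1275 did not pass, beside 1.98% of all tested genes that rose. This list was chosen with results on these samples known, so its direction is not independent evidence. CG13248, a cationic amino acid transporter gene, had 7.63 and 7.61 in elav-dimm embryos, against 2.96 and 3.17 in control embryos. Its arrays agreed within each group, and it differed by 4.56 ± 0.09 (adjusted p = 0.00435 in limma), or by 3.62 with values below 4 raised to 4. Rnf11, a RING finger ubiquitin ligase gene, had 10.71 and 10.81 in elav-dimm and 5.53 and 5.75 in control embryos. Here the controls lay above 4, and the rise of 5.12 ± 0.10 was 34.7-fold. Its second probe set rose by 2.81 (adjusted p = 0.0353). The piRNA pathway gene mael had 8.67 and 8.25 in elav-dimm and 6.14 and 6.27 in control embryos, a 4.75-fold rise (adjusted p = 0.0295). Tes, which encodes a LIM domain protein of the testin family, had 9.24 and 9.34 in elav-dimm and 8.20 and 8.22 in control embryos, a 2.12-fold rise (adjusted p = 0.0207).

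**Figure D2:**
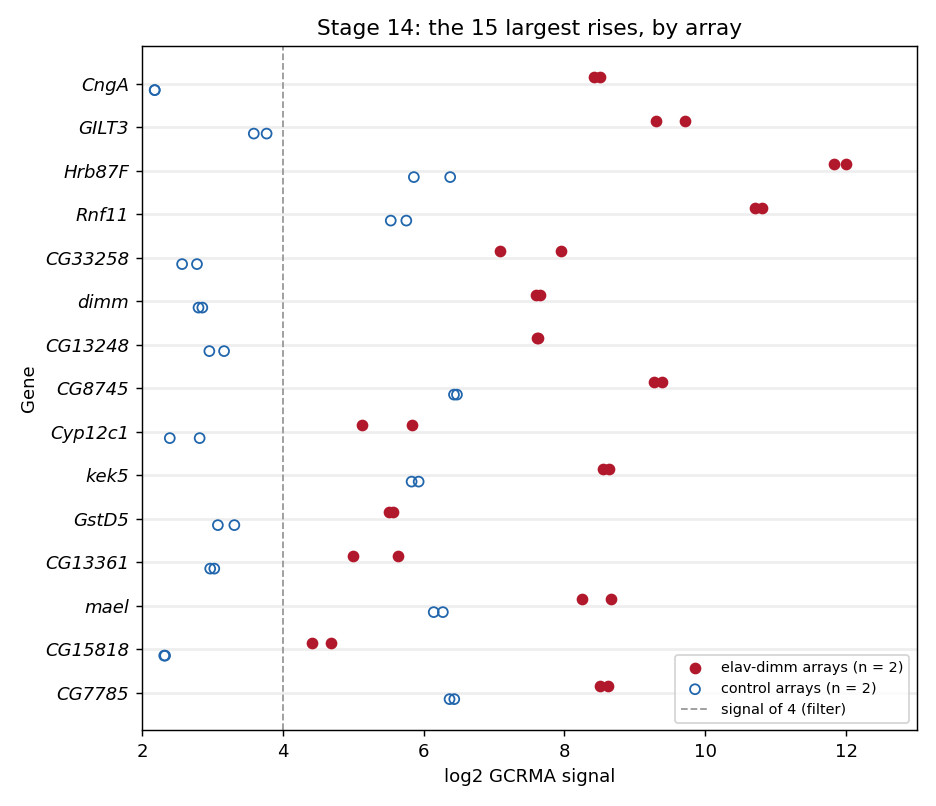
Log2 GCRMA signal on each stage 14 array for the 15 genes with the largest rises past the threshold, ordered by size. Filled red points are the 2 elav-dimm arrays and open blue points the 2 control arrays of each gene; the dashed line marks the signal of 4. In 9 genes both control arrays lie under that line, and in no gene do the groups overlap.

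Among the other genes of large rise, some lay above 4 in both groups. Hrb87F, which encodes an hnRNP protein that binds nuclear RNA, had 11.83 and 12 in elav-dimm embryos, against 5.86 and 6.38 in control embryos. The groups lay far apart, and the rise was 55.5-fold (log2 5.79 ± 0.21, adjusted p = 0.0158 in limma). CG8745 had 9.27 and 9.38 in elav-dimm and 6.43 and 6.47 in control embryos, a 7.32-fold rise. The gene kek5, a transmembrane protein gene of the Kekkon family with leucine-rich repeats and an immunoglobulin domain, had 8.55 and 8.63 in elav-dimm and 5.93 and 5.83 in control embryos. It rose 6.55-fold (adjusted p = 0.00555 in limma). A second, untested kek5 probe set did not rise, with 3.125 and 3.116 in elav-dimm and 3.181 and 3.317 in control embryos. CG7785 had 8.62 and 8.51 in elav-dimm and 6.44 and 6.37 in control embryos, and rose by 2.16 ± 0.06. In the brightest probe sets of these 4 genes all control arrays lay above 4, so the sizes do not rest on the floor.

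Other rises started from background. CngA, which encodes a subunit of a cyclic nucleotide-gated cation channel, had 8.50 and 8.42 in elav-dimm embryos and 2.18 on both control arrays. Its controls sat at the lowest value, where arrays do not vary, so the standard error of 0.05 beside its difference of 6.28 is too small a guide (adjusted p = 0.000952 in limma). With values below 4 raised to 4 the difference was 4.46. A second CngA probe set lay at 2.18 on all 4 arrays. GILT3, a thiol reductase family gene, had 9.30 and 9.71 in elav-dimm and 3.77 and 3.59 in control embryos, and differed by 5.82 ± 0.17, or by 5.50 with the raised floor. CG33258 had 7.08 and 7.95 in elav-dimm and 2.78 and 2.57 in control embryos. Its elav-dimm arrays differed from each other by more than those of most genes, and the rise was 4.84 ± 0.34 (adjusted p = 0.0279).

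The dimmest rises depended more on the floor. GstD5, a delta-class glutathione S-transferase gene, had 5.56 and 5.51 in elav-dimm and 3.08 and 3.31 in control embryos. It passed with the raised floor too, with a difference of 1.53 in place of 2.34. Cyp12c1, a cytochrome P450 gene, had 5.12 and 5.84 in elav-dimm and 2.40 and 2.82 in control embryos. CG13361 had 5.64 and 5 in elav-dimm and 2.97 and 3.03 in control embryos. CG15818 had 4.42 and 4.68 in elav-dimm and 2.33 and 2.32 in control embryos. These 3 passed as measured, and none of them passed with values below 4 raised to 4 (adjusted p = 0.0891, 0.0894 and 0.0947 in limma). Over all tested probe sets, 22 were above 4 on both elav-dimm arrays and below 4 on both control arrays, and 13 of them passed. The opposite pattern was shown by 8 probe sets, and 0 of them passed (adjusted p from 0.0729 upward). Both patterns require groups that do not overlap and met the filter through 1 genotype only, so their counts are shaped by that choice. Of all tested probe sets, 1.99% passed as higher and 1.01% as lower.

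Falls were smaller and came from transcripts well above background. CG13532 had 5.07 and 5.28 in elav-dimm embryos, against 6.78 and 7.11 in control embryos, and fell by 1.77 ± 0.15 on the log2 scale (adjusted p = 0.0359 in limma). Rbp9, an RNA-binding protein gene of the ELAV family that is expressed in neurons, had 5.50 and 5.31 in elav-dimm and 6.92 and 6.99 in control embryos. It fell to 34.1% of the control level (adjusted p = 0.0232), while its relatives elav and fne differed by 0.00 and 0.15 and did not pass. A second Rbp9 probe set lay at the lowest value on all 4 arrays. CG30428 had 8.35 and 8.52 in elav-dimm and 9.94 and 9.84 in control embryos, and fell by 1.46 ± 0.08. CG9498 had 4.98 and 4.96 in elav-dimm and 6.22 and 6.56 in control embryos.

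Further falls were of about 2-fold or a little more. GstE1, an epsilon-class glutathione S-transferase gene, had 8.74 and 8.87 in elav-dimm embryos, against 10.03 and 10.01 in control embryos, and fell to 43.1% of the control level (adjusted p = 0.0207 in limma). Spn42De, a serine protease inhibitor gene, had 8.07 and 7.91 in elav-dimm and 9.14 and 9.39 in control embryos. The tetraspanin family gene TM4SF had 7.03 and 7 in elav-dimm and 8.19 and 8.25 in control embryos, and fell by 1.21 ± 0.04. The gene mre11, of DNA double-strand break repair, had 6.96 and 6.65 in elav-dimm and 8.03 and 7.96 in control embryos. Gbp2, a growth-blocking peptide gene whose product acts as a cytokine, had 8.60 and 8.65 in elav-dimm and 9.58 and 9.79 in control embryos. RIC-3, which encodes a chaperone for nicotinic acetylcholine receptors, had 6.82 and 6.93 in elav-dimm and 7.76 and 7.86 in control embryos. CG7650, CG14275, CG7781, CG31809 and CG6574 completed the 15 largest falls, with differences from -1.19 to -0.93.

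**Figure D3:**
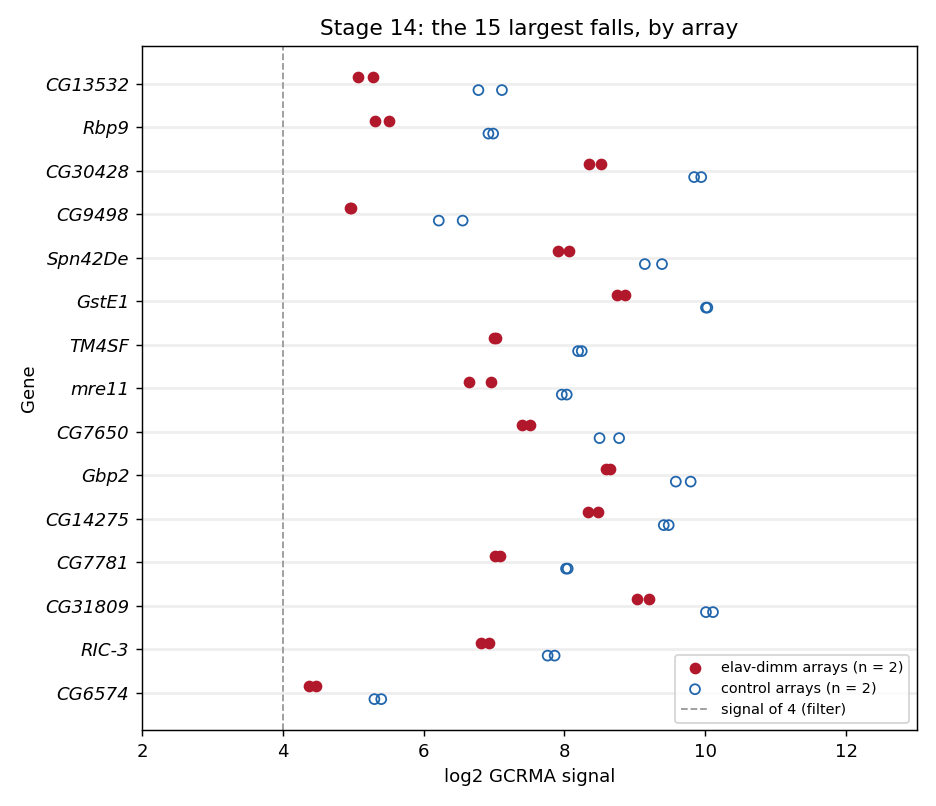
Log2 GCRMA signal on each stage 14 array for the 15 genes with the largest falls past the threshold, ordered by size. Filled red points are the 2 elav-dimm arrays and open blue points the 2 control arrays; every gene's arrays lie above the dashed line at 4, and in each the elav-dimm points lie left of the control points.

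Beyond the 15 of each direction, 110 genes rose by 0.37 to 2.08 on the log2 scale (median 0.69), and 47 fell, with differences from -0.91 to -0.35. The standing of neural genes among them was read from 35 gene lists, counted with 1 probe set per gene, its brightest. Of 645 distinct list genes tested, 18 rose and 14 fell, beside 2.97% of all 6302 tested genes past the threshold in either direction. In 15 lists no member passed.

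Of 16 pan-neuronal and ion channel genes, CngA rose, 2 fell and 13 did not pass (median 0.04), so 3 of 16 passed beside 2.97% of all tested genes. Besides Rbp9, the fall was that of nAChRbeta1, a nicotinic acetylcholine receptor subunit gene, which had 9.59 and 9.60 in elav-dimm embryos, against 10.02 and 10.10 in control embryos (-0.46 ± 0.05, adjusted p = 0.0479 in limma). None of 14 genes of transmitter synthesis and synaptic vesicles passed, with 7 positive and 7 negative differences. Among them cpx, the gene of the release clamp complexin, differed by 0.58 (adjusted p = 0.067), and Syn, the synapsin gene, by -0.57 (adjusted p = 0.221). Outside that list, the synaptic vesicle gene Syngr, named after its values were seen, fell by 0.72 ± 0.05 (adjusted p = 0.0279 in limma). Of 22 neuronal identity factors, dimm itself passed and the other 21 did not.

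Of all tested genes, 1.98% rose and 0.984% fell. By their brightest probe sets, axon guidance and adhesion genes had kek5 higher, 1 member lower and 24 not past the threshold among 26. The lower one was robo1, which encodes a receptor for the midline repellent Slit, with 10.96 and 10.89 in elav-dimm embryos, against 11.87 and 11.78 in control embryos. It fell to 53.6% of the control level (adjusted p = 0.0279 in limma). Sema1a, a transmembrane semaphorin gene, had 9.11 and 8.81 in elav-dimm and 9.81 and 9.82 in control embryos, and did not pass (adjusted p = 0.0631 in limma). Counted by each gene's probe set with the largest difference, 2 members of this list were higher and 1 was lower. For the adhesion gene Nrg, 1 of 3 tested probe sets rose, by 0.41 ± 0.04 (adjusted p = 0.0424 in limma). All 3 Nrg differences were positive.

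Beside 0.984% of all tested genes that fell and 1.98% that rose, single calls were found among glial and neuroblast markers. Of 15 glial markers, repo fell and 14 did not pass. This homeobox gene, needed for glial differentiation, had 9.96 and 10.13 in elav-dimm and 10.70 and 10.71 in control embryos (-0.66 ± 0.07, adjusted p = 0.0488 in limma). The groups did not overlap, but 11 of the 15 glial differences were positive, with a median of 0.06. Other defining glial genes did not pass: gcm differed by 0.05, moody by -0.27 and nrv2 by -0.13. Of 21 neuroblast and early neural markers, pros, whose homeodomain protein is handed to the differentiating daughter of a neuroblast, had 10.98 and 10.98 in elav-dimm and 10.58 and 10.55 in control embryos. It was higher by 0.41 ± 0.04 (adjusted p = 0.0444). The asymmetric division gene insc, at 0.46, missed the threshold (adjusted p = 0.0531).

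None of the 31 tested genes on the cell cycle and DNA replication list passed, but 26 differences were positive, with a median of 0.19 beside 0.03 for all tested probe sets. The 2 with the largest differences were Mcm5 (0.45, adjusted p = 0.158 in limma) and RnrL (0.31, adjusted p = 0.0969), of replication licensing and nucleotide synthesis. Outside the list, 3 genes named after their values were seen rose. They were Psf2, a subunit gene of the GINS replication complex (0.82 ± 0.07, adjusted p = 0.0353), the replication kinase gene Cdc7 (0.46 ± 0.05, adjusted p = 0.0479) and the mitotic checkpoint gene Zw10 (0.61 ± 0.05, adjusted p = 0.0359). Of 69 mitochondrial ribosomal protein genes, 2 rose, none fell and 67 did not pass, with 59 positive differences and a median of 0.09. The 2 that rose were mRpS9, with 10.14 and 10.12 in elav-dimm and 9.44 and 9.35 in control embryos, and mRpL27 (0.56 ± 0.06). Of 45 respiratory chain genes, the complex I subunit gene ND-15 rose by 0.39 ± 0.04 (adjusted p = 0.0488). None of 30 cytoplasmic ribosomal protein genes and none of 26 proteasome genes passed. Of all 7602 tested probe sets, 4489 had a positive difference, and 1.98% of all tested genes rose.

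None of the 38 tested genes on the list of the secretory pathway and ER translocation passed, with 21 positive and 17 negative differences between -0.41 and 0.27 and a median of 0.01. None of 15 vacuolar proton pump genes passed either (median -0.00). Of 21 genes regulated by ER stress or by ATF4, 1 fell and 20 did not pass, beside 0.984% of all tested genes that fell. On this list 13 differences were negative. The fall was that of aay, which encodes a phosphatase that completes serine synthesis, and which had 9.20 and 9.21 in elav-dimm embryos, against 9.60 and 9.62 in control embryos (-0.40 ± 0.04, adjusted p = 0.0444 in limma). The asparagine synthetase gene AsnS had 7.67 and 7.64 in elav-dimm and 8.45 and 8.74 in control embryos and did not pass (adjusted p = 0.0536). Neither the ER chaperone gene Hsc70-3, at 0.04, nor the ATF4 gene crc, at -0.18 (adjusted p = 0.154), passed. Secretory genes outside these lists, named after their values were seen, did pass. The ER chaperone gene Grp170 had 12.11 and 12.10 in elav-dimm embryos, against 11.38 and 11.49 in control embryos, and rose by 0.67 ± 0.06 (adjusted p = 0.0353). The SNARE gene Ykt6 rose by 0.85 ± 0.05 (adjusted p = 0.0257) and Mgat2, a Golgi glycosyltransferase gene, by 0.55 ± 0.06 (adjusted p = 0.046).

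**Figure D4:**
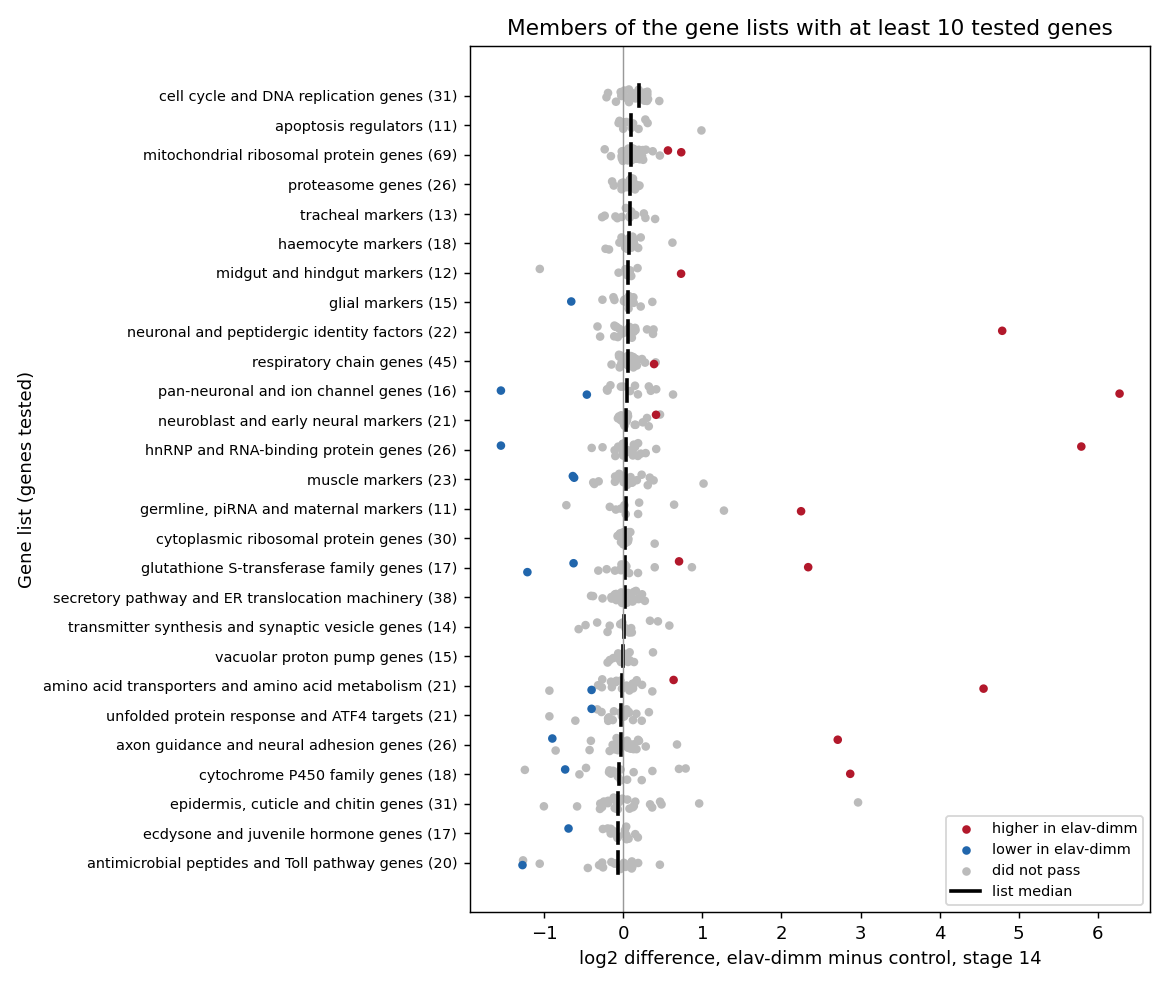
Differences between elav-dimm and control embryos at stage 14 (log2, horizontal axis) for each tested member of the 27 lists with at least 10 tested genes, with the number tested in brackets. Red points rose, blue points fell, grey points did not pass, and black bars are list medians, which all lie between -0.1 and 0.2.

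Detoxification genes passed in both directions. Of 17 glutathione S-transferase genes, 2 rose and 2 fell, beside 1.98% of all tested genes that rose and 0.984% that fell. Besides GstD5 and GstE1, GstE6 had 12.08 and 12.03 in elav-dimm and 11.33 and 11.38 in control embryos, a 1.63-fold rise, and the omega-class gene GstO3 fell by 0.63 ± 0.05 on the log2 scale (adjusted p = 0.0359 in limma). Of 18 cytochrome P450 genes, Cyp12c1 rose, Cyp309a2 fell by 0.74 ± 0.07 (adjusted p = 0.0392) and 16 did not pass. Of 26 hnRNP and RNA-binding protein genes, Hrb87F rose, Rbp9 fell and 24 did not pass. Of 21 amino acid transport and metabolism genes, CG13248 and the ornithine aminotransferase gene Oat (0.64 ± 0.05) rose, and aay fell.

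Calls in the endocrine, immune and chemosensory lists, set together here only for description, were 4 falls and 0 rises. Of all tested genes, 0.984% fell and 1.98% rose, and calls this few are not read as a result about these classes. Of 17 ecdysone and juvenile hormone genes, jhamt, the juvenile hormone acid methyltransferase gene, had 9.68 and 9.64 in elav-dimm embryos, against 10.36 and 10.35 in control embryos. It fell by 0.69 ± 0.04 (adjusted p = 0.0248 in limma), and the other 16 did not pass. Of 20 antimicrobial peptide and Toll pathway genes, Spn42De fell and 19 did not pass. The protease gene SPE (-1.06, adjusted p = 0.0552) and the antimicrobial peptide gene Mtk (-1.27, adjusted p = 0.063) had negative differences that did not pass. The serine protease inhibitor gene Spn42Da had a positive one that did not pass (0.46, adjusted p = 0.0728), and 8 of the 20 differences were positive. Only 5 odorant-binding and chemosensory genes were bright enough to test, and 2 of them fell, Obp56a by 0.91 ± 0.05 and Obp18a by 0.75 ± 0.08.

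Markers of several other tissues were detected, and few of those tested passed. The fat body markers Fbp1 and Lsp2 and the haemocyte marker Hml lay under 4 on all 4 arrays. The tracheal marker btl lay close to 4, with 4.04 and 4.08 in elav-dimm and 3.92 and 4.04 in control embryos. Of 23 muscle markers, Mlc2, a myosin light chain gene, fell by 0.62 ± 0.07 (adjusted p = 0.046 in limma), and sns, an adhesion gene of myoblast fusion, fell by 0.64 ± 0.07 (adjusted p = 0.0479). The muscle list median was 0.03. Counted by each gene's probe set with the largest difference, 1 muscle marker rose and 2 fell. Of all tested genes, 1.98% rose and 0.984% fell. None of 31 epidermis and cuticle genes passed, and the widest difference there, that of TwdlM at 2.97, did not separate the groups, with 9.11 and 4.79 in elav-dimm and 4.79 and 3.17 in control embryos (adjusted p = 0.401). Of 12 gut markers, the lysosomal mannosidase gene LManII rose by 0.73 ± 0.08 (adjusted p = 0.0479). Of 11 germline and piRNA genes, mael rose and the other 10 did not pass. None of 18 haemocyte, 13 tracheal, 8 fat body, 7 salivary gland, 11 apoptosis, 8 heat shock and 7 sex chromosome dosage genes passed. Signals of the defining neuronal markers were summed before taking the log2. These sums were 13.68 and 13.73 in elav-dimm and 13.59 and 13.64 in control embryos, with nSyb and brp under 4 on all 4 arrays. Those of the 4 defining glial markers, of which repo alone passed, were 13.66 and 13.84 in elav-dimm and 13.93 and 13.92 in control embryos. The brightest of them, nrv2, weighs most in these sums, with 13.26 and 13.48 in elav-dimm and 13.50 and 13.49 in control embryos. The part of cell number in the fall of repo was not tested.

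Where a gene had several tested probe sets, they did not always move together. Of 280 such genes, 19 had at least 1 probe set past the threshold. In 3 of them (Phm, Rnf11 and CG6891) all passed, in 13 the others had the same sign but did not pass, and in 3 another probe set had the opposite sign. These 3 were named after their values were seen. One CHKov1 probe set rose by 1.45 ± 0.15 (adjusted p = 0.046 in limma), while a brighter one differed by -0.16 (adjusted p = 0.268). One probe set of the gene be fell by 1.33 ± 0.07 (adjusted p = 0.0207), while the other differed by 0.15 (adjusted p = 0.183). For CG6791, 1 of 3 probe sets rose, by 0.60. Probe sets whose names end in _s_at, among them those of Rnf11, kek5, mael, Rbp9 and robo1, can read more than 1 transcript, and a share of the signal from a related gene was not tested.

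The same genes were set beside stage 16. Values for stage 16 come from a limma fit over all 8 arrays, in which replicate 1 arrays of that stage had low 5′ signal. GILT3 differed by 5.82 at stage 14 and 5.73 at stage 16, Hrb87F by 5.79 and 6.17, Rnf11 by 5.12 and 4.89, and kek5 by 2.71 and 2.42. CngA, by contrast, differed by 0.08 ± 0.08 at stage 16. The difference between its effects was 6.19 (adjusted p = 8.63e-05 in limma), and it was the only probe set of 8258 past the threshold (0.0121%). CG33258 had a mean of 7.51 in elav-dimm and 2.68 in control embryos at stage 14, and of 2.27 and 2.23 at stage 16. Its difference between stages, 4.79, did not pass (adjusted p = 0.103). GstD5, CG13361 and Cyp12c1 likewise differed by 0.27, 0.08 and 0.43 at stage 16, and their differences between stages did not pass (adjusted p = 0.34, 0.556 and 1).

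**Figure D5:**
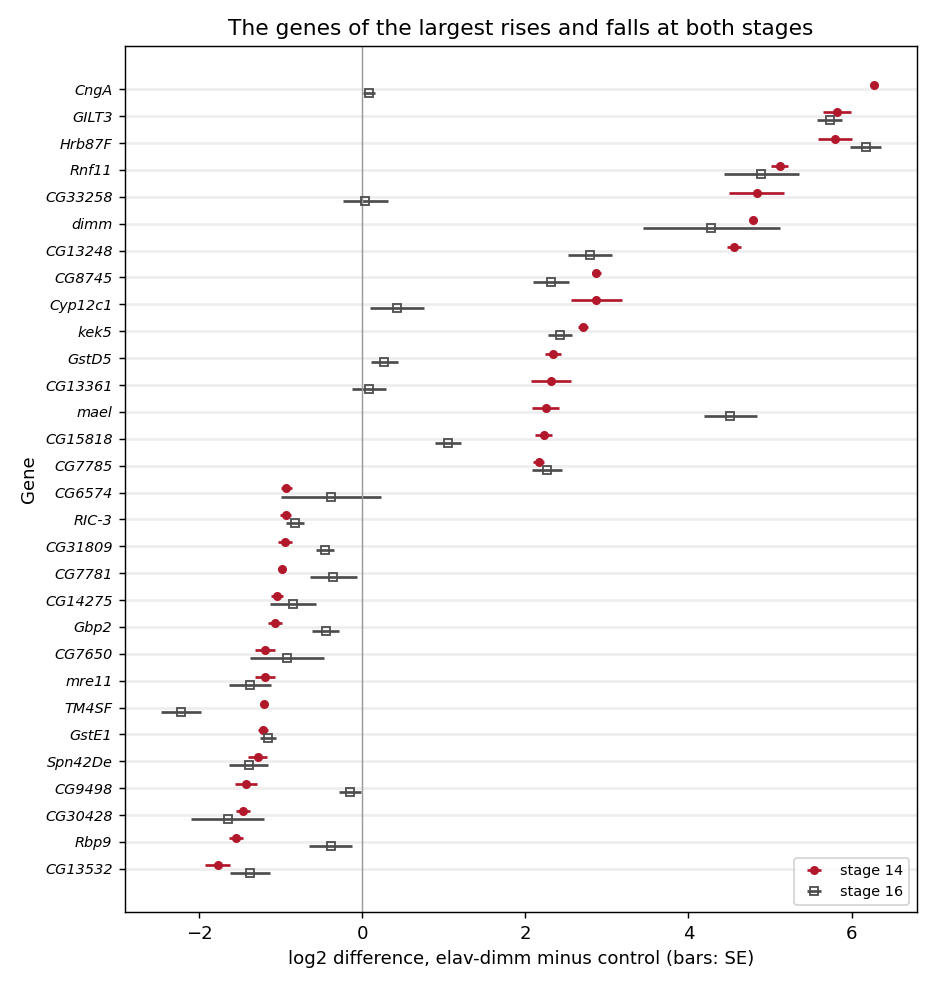
Difference between elav-dimm and control embryos (log2, with standard errors) at stage 14 (red circles) and at stage 16 (open squares) for the 15 largest rises and 15 largest falls of stage 14. CngA lies at 6.28 at stage 14 and 0.08 at stage 16, while GILT3, Hrb87F and Rnf11 lie above 4 at both stages.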

How the data were processed

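RNA of whole embryos was hybridised to Affymetrix Drosophila Genome 2.0 arrays. The log2 values deposited by the authors came from GCRMA 2.22.0 in R 2.12.1, per the submitters' processing notes; limma is named there without a version. Joint or separate normalisation of the stages is not stated in those notes. The 183 control probe sets were left out, leaving 18769, of which 13646 named a single gene, 402 named several and 4721 were unnamed. Symbols were updated through gene identifiers with the RefSeq table of Release 6 plus ISO1 MT, in which 89 identifiers were not found. The comparison was fitted to the 4 stage 14 arrays alone with limma 3.58.1 in R 4.3.3 (2 residual and 1.58 prior degrees of freedom), with Benjamini-Hochberg adjustment over 7602 probe sets. Errors are standard errors of that fit. Per gene, the brightest single-gene probe set was used.

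The members and gene lists were chosen with earlier results of these data known, and misassigned list entries were removed after values had been seen. Genes were named by rule: dimm, the 15 largest rises and falls past the threshold with arrays not overlapping, in each list up to 4 members that passed, and Phm, CG13248, CG1275, mael, Rnf11, Tes, crc, elav, repo, amon, Pal2 and Rph. Other list members are named with their values as examples chosen after those were seen. The script was tested on simulated data. Promoter motifs were not analysed here.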

Additional observations from a re-analysis of the deposited data

Results flagged for a closer look

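The effect of dimm on CngA, the cyclic nucleotide-gated channel gene, differed between the stages by the test of the difference itself. The effect was larger at stage 14 by 6.19 on the log2 scale (adjusted p = 8.63e-05 in limma, 8 arrays). Its stage 14 controls lay at the lowest value, 2.18, on both arrays, and its stage 16 means were 3.54 in elav-dimm and 3.45 in control embryos, all under 4. Arrays hardly vary there, so the p-value understates the error, and passing in each of the 12 alternatives run says little about stability. With values below 4 raised to 4 the effect was larger by 4.46. A second CngA probe set lay at 2.18 on all 4 stage 14 arrays.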

How the results depend on the processing

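The 228 stage 14 calls kept their sign in every alternative that tested them, which says little about stability. In all 228 the groups did not overlap, so leaving out 1 array could not change a sign. Several other settings reuse the same differences. By number, 202 to 312 passed with array weights (chosen after seeing the data), raised floor, robust or trended moderation, median centring and a filter above 4 on all 4 arrays. A filter above 5 gave 343 (227 higher, 116 lower) and renewed quantile normalisation gave 353 (183 higher, 170 lower). Without a filter 1 of 18769 passed (0 higher, 1 lower). A shared spread with stage 16 gave 34 (28 higher, 6 lower). The replicate block gave 10 (10 higher, 0 lower), 9 of them among the 228, and 5 list genes in place of 32; deviations of same-numbered arrays correlated at 0.215, and the labels share only a number. Leaving out 1 array gave 0 to 0, higher and lower alike, with fewer arrays in the fit. The stage difference had 1 call, 3 with the block, 3 with the raised floor, 5 without a filter, 1 to 2 without 1 array and 38 without both dim 5′ arrays of stage 16 (added after seeing the data). The difference of elav, -0.0034, changed sign to 0.0005 with quantile normalisation and ranged from -0.0108 to 0.0041 without 1 array (0.004 without elav-dimm replicate 2). Taking each group as 1 RNA sample leaves no test. The causes were not tested.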

Other observations

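Further genes past the threshold, named after their values were seen, had other known roles. Veneno, a Tudor domain gene of the piRNA pathway, had 8.51 and 8.62 in elav-dimm embryos, against 6.82 and 6.90 in control embryos, and rose by 1.70 ± 0.06 (adjusted p = 0.0158 in limma). The MAGUK scaffold gene metro had 10.13 and 10.07 in elav-dimm and 8.66 and 8.87 in control embryos, a 2.52-fold rise. The scavenger receptor gene santa-maria rose by 1.58, with 7.04 and 6.75 in elav-dimm and 5.23 and 5.40 in control embryos. The genes TfIIA-L and TfIIA-S of the transcription factor TFIIA rose, by 0.64 ± 0.06 and 0.63 ± 0.07. The RNA polymerase II subunit gene Polr2G rose by 0.73 and the nuclear exonuclease gene Rat1 by 0.82. Among falls, the tyrosine kinase gene Abl had 7.11 and 7.11 in elav-dimm and 7.94 and 7.91 in control embryos (-0.81 ± 0.04, adjusted p = 0.0207), and Syngr, the synaptogyrin gene of synaptic vesicles, fell by 0.72 ± 0.05.

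Of the 228 probe sets past the threshold at stage 14, 20 also passed in the same direction at stage 16 in the fit over 8 arrays, and 1 in the opposite direction. The share of all probe sets past the threshold at stage 16 is not given here, so 20 cannot be called few or many. Even dimm (4.28 ± 0.84, adjusted p = 0.176 in limma) and Phm (1.13 ± 0.17, adjusted p = 0.108) did not pass at stage 16. The 1 in the opposite direction was CG4440, which had 11.36 and 11.45 in elav-dimm embryos, against 10.42 and 10.50 in control embryos at stage 14. At stage 16 it had 7.15 and 6.88 in elav-dimm and 8.53 and 8.33 in control embryos. It rose by 0.95 ± 0.06 at stage 14 and fell by 1.42 ± 0.13 at stage 16. The difference between the stages, 2.36, did not pass over all 8 arrays (adjusted p = 0.103 in limma). Without both dim 5′ arrays of stage 16 it was 2.40, with stage 16 then resting on 1 array per genotype.

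Neighbouring genes were counted in the RefSeq order. There, 4 of 157 such genes with a tested neighbour (2.55%) had a neighbour past the threshold too, against 206 of 4917 other genes (4.19%). The 2 pairs were CG7781 with CG14275 and Gbp1 with Gbp2, and all 4 genes fell.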
